A study of Mus musculus with 6 samples.

Results

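Death receptors, their ligands and their adaptors were followed in erythroblasts as 10 genes, taken by name from the array files. Fasl, Tnf and Tnfsf10 encode ligands, Fas, Tnfrsf1a, Tnfrsf1b and Tnfrsf10b encode receptors, and Fadd, Tradd and Ripk1 encode the proteins that bind to the receptors inside the cell. They were read by 11 of the 55681 probes for mouse RNA on the array, which occupied 30 spots. Of the 10 genes, 5 could be compared between genotypes, among 14161 such gene names on the array. The other 5 were too close to background for a test and are given by their values alone.

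The RNA came from CD71highTer119+ erythroblasts sorted on day 4 after 1 injection of phenylhydrazine (PHZ, 100 mg per kg), a drug that lyses red cells and forces the bone marrow (BM) to replace them. The 3 P38α+/- mice carried Mx1-Cre with 1 floxed P38α allele, written P38α fl/+, and the 3 P38α-/- mice carried Mx1-Cre with both alleles floxed, P38α fl/fl. All were on a C57Bl/6 background, and the methods speak of male and female mice. Both genotypes had been given 3 injections of PolyIC (300 µg each) at 6 to 8 weeks of age and then 6 weeks of rest, so that PolyIC, PHZ and Cre were shared by the groups compared. Mx1-Cre responds to interferon and acts in all hematopoietic cells and in other tissues, so the deletion was not confined to erythroblasts. The comparison asked what loss of P38α changed in the transcripts of erythroblasts during recovery from anemia.

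A death receptor is a receptor of the TNF receptor family whose tail carries a death domain. When its ligand clusters it, the death domain recruits adaptors such as FADD and TRADD. FADD brings in caspase-8, which starts apoptosis, whereas the TRADD and RIPK1 complex at TNF receptor 1 mostly drives NF-kB signaling and survival and turns to death only when that arm fails. In mouse erythropoiesis, Fas and its ligand on early erythroblasts are known to limit erythroblast survival, and TNF is known to restrain red cell production in inflammation.

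Among the members tested, Tnf and Tnfrsf1a were those whose genotypes did not overlap, both reading lower in arrays labelled P38α-/-. This depended on the scaling of the arrays, as given below. The probes that read them are shown by the opening 30 bases of each 60-base probe, in lower case with no part marked. The Tnf probe lies on chromosome 17 of mm9 from 35336795 to 35336854 on the minus strand. The probes of Tnfrsf1a lie on chromosome 6 of mm9, from 125311922 to 125311981 for the brighter and from 125312376 to 125312435 for the other, both on the plus strand. The exon or untranslated region behind each position was not assigned here.
Tnf probe: tgggctttccgaattcactggagcctcgaa
Tnfrsf1a brighter probe: ttccaagatgaacctggctgggtgcctgga
Tnfrsf1a other probe: agcaatctttgtatcaattatatcacacta

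The 250 bases before the start site of both genes are printed because both transcripts read low in the same arrays. RefSeq promoters of GRCm38.p6 were matched for 8 of the 10 members, and none was matched for Tradd and Tnfrsf10b. The Tnf window is chr17:35202008-35202257 on the minus strand, and the Tnfrsf1a window is chr6:125349473-125349722 on the plus strand. Capitals mark a TATA box.
Tnf: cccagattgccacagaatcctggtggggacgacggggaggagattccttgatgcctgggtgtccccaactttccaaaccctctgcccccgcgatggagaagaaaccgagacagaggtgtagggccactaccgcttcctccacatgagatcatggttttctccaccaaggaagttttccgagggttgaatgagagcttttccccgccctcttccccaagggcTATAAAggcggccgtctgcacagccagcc
Tnfrsf1a: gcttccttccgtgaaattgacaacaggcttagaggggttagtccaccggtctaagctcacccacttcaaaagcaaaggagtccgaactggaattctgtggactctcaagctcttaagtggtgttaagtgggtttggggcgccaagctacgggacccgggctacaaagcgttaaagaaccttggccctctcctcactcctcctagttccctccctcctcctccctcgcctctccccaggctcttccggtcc

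A TATA box, searched as TATAAA on both strands, was found in the Tnf window, 29 bases before the start site, and in no other window of the 8 members. It is held by 14.3% of the 27025 genes with a promoter of this length. An AP-1 site (TGANTCA, N being any base, both strands) stood 211 bases before the start site of Fas and in no other member, against 7.82% of all genes. Neither a GATA site (AGATAA) nor the NF-kB consensus was found in the windows of the 8 members on either strand. Those 2 motifs were held by 11.4% and 8.23% of all genes. These are matches of letters in a short window only.

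Each level is the log2 signal after subtraction of the 75th percentile of its array, computed from the 15538 probes that were well above background throughout, and is given for replicates 1, 2 and 3 in that order. Levels of different probes are not comparable as amounts of RNA. Between 28.9% and 53.1% of the probes on an array were well above background, with P38α-/- replicate 1 lowest and P38α+/- replicate 1 highest. P38α-/- replicate 3 was alone on its slide and on its day of scanning. Mapk14, the gene of P38α, did not read lower in arrays labelled P38α-/-. Its brighter probe read 0.33, 0.58 and 0.61 in P38α+/- arrays and 0.76, 1.19 and 1.20 in those labelled P38α-/- (log2 fold change 0.54, limma adjusted p = 0.186), and its dimmer probe differed by 0.01 on the log2 scale (adjusted p = 0.99). The files do not show which part of the gene these probes read relative to the deletion, so genotypes are those of the labels and every direction below rests on them.

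None of the 5 members tested was called, a call requiring a 2-fold difference and a limma adjusted p no higher than 0.05. Of the 14161 genes tested, 24 were called, which is 0.169%. When replicate number entered the fit as a block, 53 genes were called, 0.374%, and still none of the members. At an unadjusted p of at most 0.05 the members passing were 2, Tnf and Tnfrsf1a, and 20.0% of all genes passed that limit. Tnf was tested only because it was well above background in P38α+/- arrays, so it had to differ and adds no support to the count, whereas Tnfrsf1a was measured in both genotypes. The methods' test on the same values also called 0 members after Benjamini-Hochberg adjustment, and Tnf alone without it. As read, the genotypes did not overlap for the same 2 members, both lower, beside 19.7% of all genes that were lower without overlap and 7.45% that were higher. This separation depended on the scaling of the arrays. Both members overlapped with centring on the E1A spike-in or with normexp background correction. Under quantile normalization, or with the authors' normalized values, Tnfrsf1a stayed apart and Tnf did not, and Fadd came apart in the other direction (log2 fold change 0.46 and 0.55). With the percentile of all probes Tnf stayed apart and Tnfrsf1a did not, and Fadd (0.67) and Tradd (0.42) were higher without overlap. In a sorted bulk sample, fewer cells that carry a transcript and less of it per cell cannot be told apart.

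**Figure D1:**
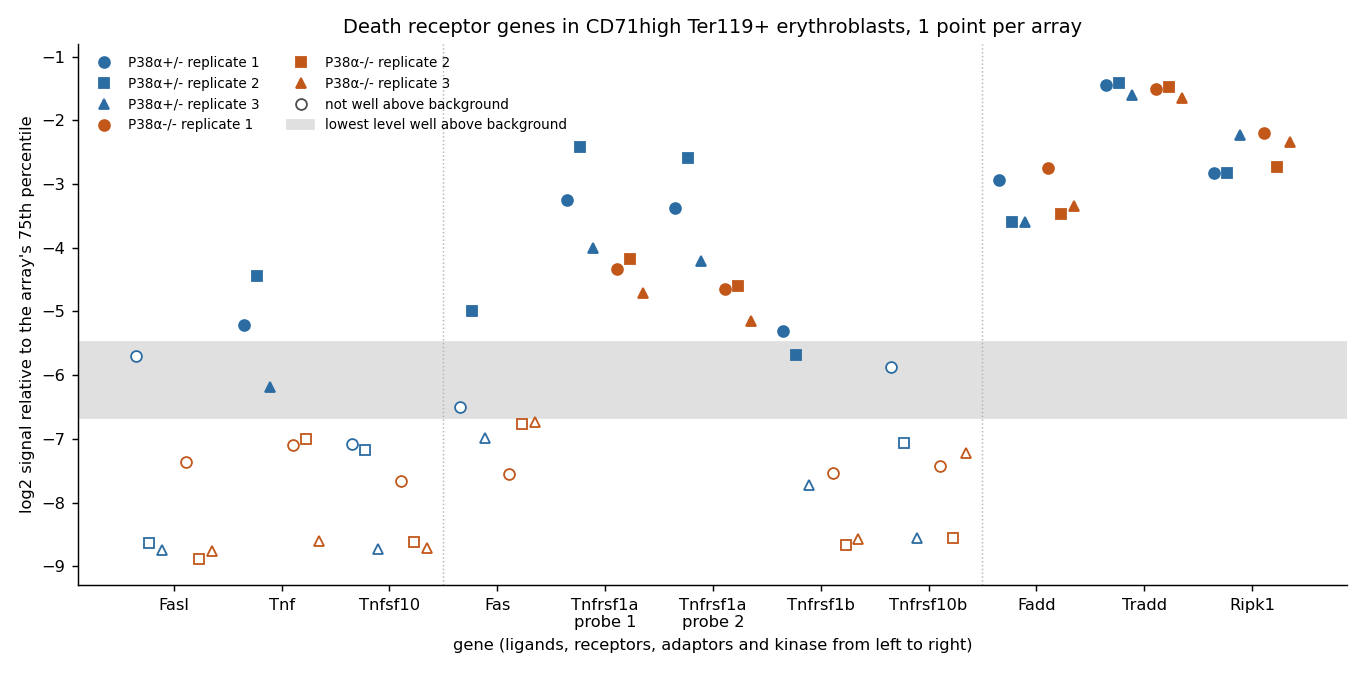
Level of each probe on each array, as log2 signal relative to the 75th percentile of the array, with ligands at the left, receptors in the middle and the adaptors with Ripk1 at the right. Filled points were well above background, open points were not, and the grey band spans the lowest level well above background on the 6 arrays (-6.67 to -5.48). Both Tnfrsf1a probes are lower in every array labelled P38α-/- than in any P38α+/- array at this scaling, the Tnf points of arrays labelled P38α-/- are all open, and Fadd, Tradd and Ripk1 overlap.

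Among the ligands, only Tnf was well above background on any array. Tnf encodes tumor necrosis factor, the ligand of TNF receptors 1 and 2. It read -5.21, -4.45 and -6.19 in P38α+/- arrays and -7.10, -7.01 and -8.61 in arrays labelled P38α-/-. P38α+/- replicate 2 was the highest of the 6. The scanner placed its probe well above background in 3 of 3 P38α+/- mice and in 0 of 3 labelled P38α-/-, so that it entered the test through the P38α+/- arrays alone. The lowest level well above background was -5.48 on P38α-/- replicate 1, which is above P38α+/- replicate 3, so those arrays cannot be ordered. As a bound it was at least 1.92-fold lower in arrays labelled P38α-/-, from a P38α+/- mean of -5.28 against -6.23, the mean of the lowest levels that counted as well above background there. The limma adjusted p was 0.13, and 0.055 with the replicate block, both computed on the readings as they stand. Alternative settings gave adjusted p-values between 0.0114 and 1.0. Tnf passed under 2 of them, scaling to the percentile of all probes (0.0114) and weighting of arrays (0.0209). Those settings called 813 and 1892 of 18782 probes, against 28 in the main fit. The largest weights were 3.95 for P38α-/- replicate 3 and 2.14 for P38α+/- replicate 2, where Tnf read -8.61 and -4.45. The other arrays had weights of 0.47 to 0.77.

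The Tnf probe was printed in 10 spots on each array, which showed how finely the level was read within an array. In P38α+/- replicate 2 all 10 spots were well above background and lay between -4.58 and -4.31 on the log2 scale. In replicates 1 and 3 of that genotype 7 of 9 and 6 of 10 spots kept were well above background. No spot was well above background in arrays labelled P38α-/-, of 8, 10 and 9 kept. Their signals before scaling averaged 5.72, 12.9 and 3.50 intensity units, against 22.3, 59.8 and 20.9 in P38α+/- arrays. Spots of 1 array are not replicates of a genotype.

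**Figure D2:**
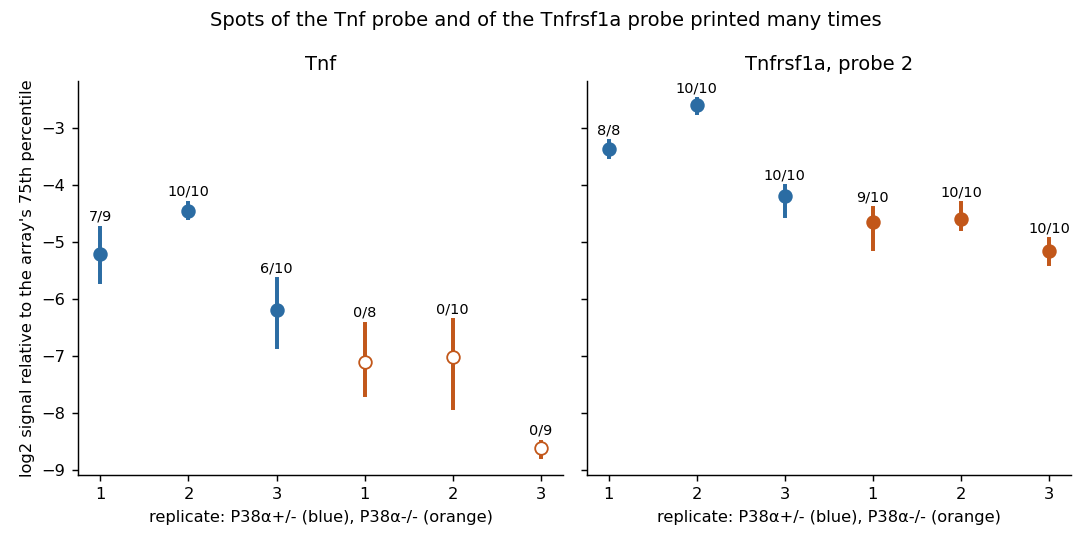
Range over spots (bars) and mean (points) of the Tnf probe and of the Tnfrsf1a probe printed 10 times, as log2 signal relative to the 75th percentile of the array, for each array. Fractions give spots well above background over spots kept, and open points mark a mean not well above background. For Tnf the bars of P38α+/- replicate 3 (-6.84 to -5.65) and of P38α-/- replicates 1 (-7.69 to -6.43) and 2 (-7.92 to -6.37) overlap.

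On none of the 6 arrays were the other ligands well above background. Fasl encodes Fas ligand, which is carried mainly by activated T cells and NK cells. It read -5.70, -8.64 and -8.75 in P38α+/- arrays and -7.36, -8.89 and -8.76 in arrays labelled P38α-/-. Tnfsf10, which encodes TRAIL, the ligand of TRAIL receptors, read -7.08, -7.18 and -8.73 against -7.67, -8.62 and -8.71. Readings at this level have no order between genotypes.

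Of the receptors, Tnfrsf1a was the only one well above background on all 6 arrays. It encodes TNF receptor 1, the death domain receptor of TNF. Its brighter probe read -3.25, -2.42 and -4.01 in P38α+/- arrays and -4.34, -4.18 and -4.71 in arrays labelled P38α-/-. The other probe read -3.37, -2.59 and -4.20 against -4.65, -4.60 and -5.15. Both probes were lower in each of the 3 arrays labelled P38α-/- than in any P38α+/- array, and on both P38α+/- replicate 2 was highest and P38α+/- replicate 3 was nearest to the other genotype. The log2 fold change was -1.18 by the brighter probe (standard error 0.41, 95% interval -2.16 to -0.20, limma adjusted p = 0.184). By the other probe it was -1.41 (standard error 0.41, 95% interval -2.41 to -0.41, adjusted p = 0.152). With the replicate block the adjusted p was 0.0906 and 0.0778. By replicate number the brighter probe differed by -1.09, -1.76 and -0.69, and without P38α+/- replicate 2 its log2 fold change was -0.78. Over the alternatives it ran from -1.73 to -0.67, with adjusted p from 0.0284 to 1.0, and it passed the call with array weights alone. It was -0.70 with the percentile of all probes, -0.77 after quantile normalization and -0.67 after normexp.

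The repeated Tnfrsf1a probe was read more evenly than Tnf. Its 10 spots had a standard deviation of 0.08 to 0.20 on the log2 scale within an array, and at least 8 spots were kept and well above background on each array. The difference between the genotype means, -3.39 ± 0.81 against -4.80 ± 0.31 (SD, n = 3 each), was therefore larger than the spread of spots and also larger than the SD between P38α+/- mice.

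The other receptors were dim. Tnfrsf1b encodes TNF receptor 2, which binds TNF and lacks a death domain. It read -5.30, -5.68 and -7.73 in P38α+/- arrays and -7.53, -8.67 and -8.57 in arrays labelled P38α-/-. It was well above background on P38α+/- replicates 1 and 2 alone, and no array labelled P38α-/- measured it. Fas, the receptor of Fas ligand, read -6.50, -4.99 and -6.99 against -7.55, -6.76 and -6.73. Only P38α+/- replicate 2 was well above background for Fas, on both of its spots, so that no difference between genotypes could be measured. On no array did Tnfrsf10b, the mouse receptor of TRAIL with a death domain, read well above background. Its levels were -5.88, -7.07 and -8.55 against -7.42, -8.55 and -7.22.

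The proteins inside the cell were read well above background on all 6 arrays. Fadd, the adaptor that joins Fas to caspase-8, read -2.93, -3.60 and -3.59 in P38α+/- arrays and -2.75, -3.47 and -3.34 in arrays labelled P38α-/-. The genotypes overlapped, and the log2 fold change was 0.19 (standard error 0.28, 95% interval -0.49 to 0.86, limma adjusted p = 0.746). Replicate 1 was the highest of each genotype, and the differences by replicate number were 0.18, 0.13 and 0.25. Tradd, the adaptor of TNF receptor 1, read -1.44, -1.41 and -1.60 against -1.50, -1.48 and -1.65. It was the steadiest of the members tested, with a log2 fold change of -0.06 (standard error 0.15, 95% interval -0.41 to 0.29, adjusted p = 0.854), whose sign turned under 4 of the alternative scalings or value tables. Ripk1, the kinase that scaffolds both survival and death complexes, read -2.83, -2.82 and -2.23 against -2.20, -2.73 and -2.34. Its genotypes overlapped as well, with a log2 fold change of 0.20 (standard error 0.24, 95% interval -0.38 to 0.79, adjusted p = 0.674), and P38α+/- replicate 3 read like P38α-/- replicates 1 and 3. The intervals leave a fold of 2 outside for all 3 of these genes, at the scaling used here. On the array, Fadd is read at chromosome 7 from 151764228 to 151764267, Tradd at chromosome 8 from 107782475 to 107782531 and Ripk1 at chromosome 13 from 34125152 to 34125211, all of mm9.

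**Figure D3:**
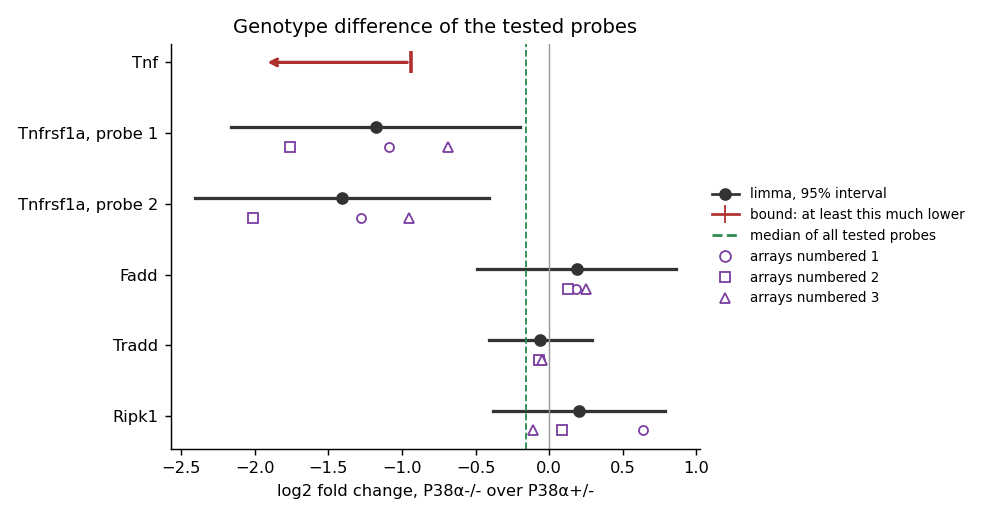
Log2 fold change of arrays labelled P38α-/- over P38α+/- arrays for the tested probes, with the limma estimate and its 95% interval (n = 3 against 3) and, as open symbols, the difference between arrays of the same replicate number. For Tnf, which no array labelled P38α-/- measured, an arrow starts at the bound of 1.92-fold lower. The dashed line is the median of all tested probes, -0.16. The intervals of both Tnfrsf1a probes lie below 0 and those of Fadd, Tradd and Ripk1 hold 0, and none of the members passed the adjusted p of 0.05.

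Of the 15538 probes well above background everywhere, 10937 carried a RefSeq gene symbol that was not a member's. Among them were sought the genes whose level ran most like a member over the 6 arrays. The measure was the root mean square difference after each was centred on its own mean. For the brighter Tnfrsf1a probe the nearest genes were S100a8, which encodes a calcium-binding protein of neutrophils, at 0.0481, and Mgst1, a glutathione transferase, at 0.102. For its other probe they were Fgd3, an exchange factor of Cdc42, at 0.0349 and Myo1f, a myosin of immune cells, at 0.0722. The Tnfrsf1a probes lay 0.126 from each other, with 14 other genes nearer to the brighter and 17 nearer to the other. Fadd ran most like Timm13 and Oxld1 (0.0428 and 0.0446), Tradd like Rpl12 and Spata2 (0.0175 and 0.0295), and Ripk1 like Efnb3 and Atg4d (0.0704 and 0.0912). The likeness is a description over 6 arrays.

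Transcripts of several other cell types that the gate could hold read lower in the same arrays as Tnf and Tnfrsf1a. The sorted cells had late erythroid markers on every array, 8 of 8 well above background, among them Slc4a1, Alas2 and Epor. Their summed level was 257 to 313 times the 75th percentile in P38α+/- arrays and 243 to 324 times in arrays labelled P38α-/-. All 9 neutrophil markers were also well above background on every array, and their sum was 109 to 282 times the percentile in P38α+/- arrays against 58.6 to 82.5 times. Of these 9, 7 were lower without overlap, beside 19.7% of all genes. An unadjusted limma p of at most 0.05 was found for 8 of the 9, beside 20.0% of all genes. S100a9, S100a8 and Camp were among these, with log2 fold changes of -1.14, -1.24 and -1.65. P38α+/- replicate 2 had the highest neutrophil sum and P38α-/- replicate 3 the lowest, as for both Tnfrsf1a probes. The latter array was also the one alone on its slide and day of scanning. The sums of monocyte or macrophage markers (1.41 to 3.11 against 0.874 to 1.26) and of T or NK cell markers (0.668 to 2.64 against 0.454 to 0.586) did not overlap either. Such sums weigh the brightest genes most. Gene by gene, 2 of the 8 monocyte or macrophage markers tested were lower without overlap and 6 overlapped, Cd68, C1qa and C1qb among these. Of the 4 T or NK cell markers tested 3 were lower without overlap and 1, Cd3e, overlapped. On no array did Cd8a, which marks cytotoxic T cells, read well above background. The B cell sum (0.139 to 1.23 against 0.0573 to 0.191) overlapped, as did the early erythroid sum of Kit, Gata2, Myb and Hba-x (0.186 to 0.544 against 0.0903 to 0.191). Single genes of those lists read lower without overlap. The B cell factor Ebf1 was at least 3.48-fold lower (limma adjusted p = 0.0663, and 0.0481 with the replicate block) and the B cell surface protein Ms4a1 at least 2.94-fold lower (adjusted p = 0.103), neither being well above background on any array labelled P38α-/-. Both entered the test through the P38α+/- arrays alone, so their separation and p-values add no support. Cd79b, the B cell marker well above background on all 6 arrays, overlapped (log2 fold change -2.42, limma adjusted p = 0.255). Kit, the stem cell factor receptor of early progenitors, differed by -1.62 on the log2 scale (adjusted p = 0.16, and 0.0481 with the replicate block). These genes were named after their values were seen. Megakaryocyte or platelet markers summed to 1.57 to 2.11 against 1.85 to 2.34, with Ppbp not well above background on any array. Gp9 was the brightest of them. Of the 4 tested, Pf4 was lower without overlap (log2 fold change -1.42, limma adjusted p = 0.196) and 3 overlapped. The part that such cells had in the levels of Tnf and Tnfrsf1a was not tested.

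**Figure D4:**
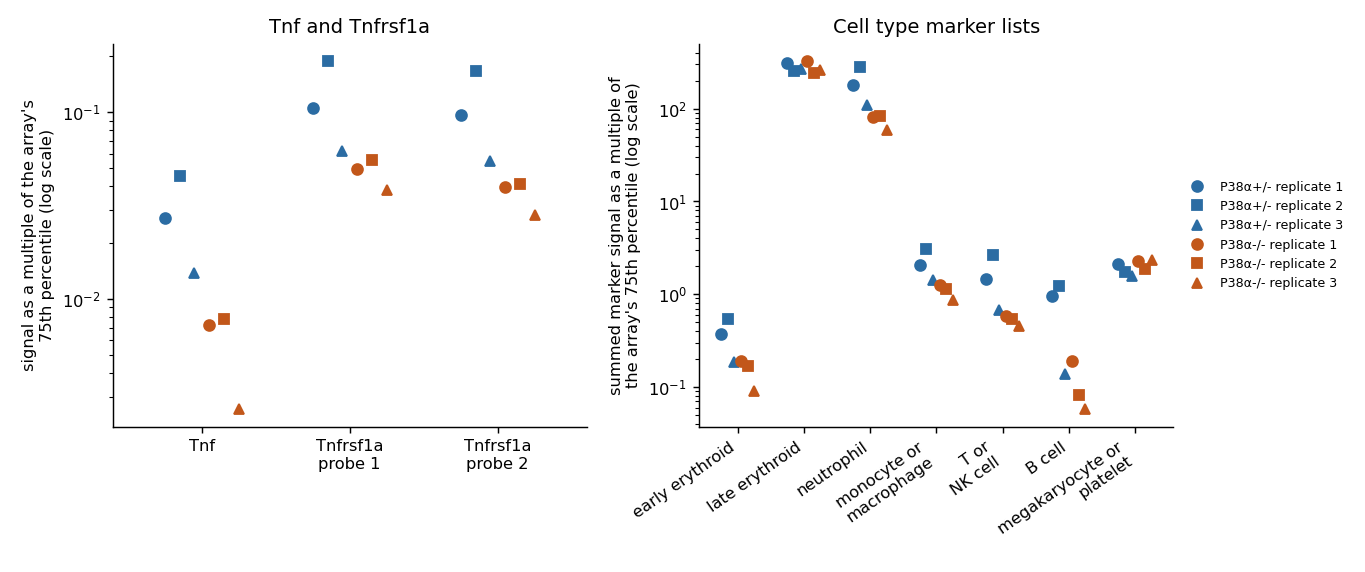
Left, signal of Tnf and of both Tnfrsf1a probes, and right, summed signal of each list of cell type markers, on each of the 6 arrays, as multiples of the 75th percentile of the array on log axes. P38α+/- replicate 2 is the highest array for Tnf, both Tnfrsf1a probes and the neutrophil sum (282), while late erythroid sums overlap between genotypes.

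The rest of the pathway was followed through 5 lists of 82 genes, 81 of them on the array and 54 tested. None of the 54 was called, and 15 had an unadjusted p of at most 0.05, or 27.8% beside 20.0% of all genes, with 9 lower and 6 higher in arrays labelled P38α-/-. Those lower without overlap were 11, or 20.4% beside 19.7% of all genes, and those higher were 6, or 11.1% beside 7.45%. The lower genes include Birc3, which was well above background in P38α+/- arrays alone and so had to differ. The median log2 fold change of the 54 was -0.21, and that of all tested genes was -0.14.

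Of 15 other TNF superfamily ligands, 5 were tested and none was apart between genotypes. Their median log2 fold change was -1.01, and 2 had an unadjusted p of at most 0.05, Tnfsf12 (-0.56, limma adjusted p = 0.23) and Tnfsf13b (-1.04, adjusted p = 0.233), which are named after their values were seen. Tnfsf12 encodes TWEAK and Tnfsf13b encodes BAFF, a survival factor of B cells. Of 24 other receptors of the family, 10 were tested, with a median of -0.11. Ltbr, the lymphotoxin beta receptor, read -2.33, -4.53 and -5.67 in P38α+/- arrays and -6.31, -6.28 and -6.39 in arrays labelled P38α-/-. Ltbr differed by -2.15 on the log2 scale (adjusted p = 0.201), with most of its spread among the P38α+/- mice. Its readings in arrays labelled P38α-/- lay near background. Replicate 1 was below the lowest level well above background there (-5.48), and replicates 2 and 3 were close to theirs (-6.67 and -6.53). The size of the difference is thus uncertain. Tnfrsf25, which encodes the death domain receptor DR3, ran the other way, at -5.36, -6.03 and -4.91 against -4.07, -4.48 and -3.95. Its log2 fold change was 1.27 (adjusted p = 0.123), and every array labelled P38α-/- was above every P38α+/- array.

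In the list of the death-inducing complex and necroptosis all 13 genes were tested, with a median log2 fold change of -0.23. Of the 13, 3 were lower and 1 higher without overlap, beside 19.7% and 7.45% of all genes. Casp8, which encodes the initiator caspase of this complex, differed by -0.17 on the log2 scale (standard error 0.18, limma adjusted p = 0.627). Cflar encodes c-FLIP, the inhibitor of caspase-8 at the receptor. It read -2.02, -2.83 and -3.32 in P38α+/- arrays and -4.08, -4.14 and -4.16 in arrays labelled P38α-/-, a log2 fold change of -1.41 (adjusted p = 0.114). Mlkl, the effector of necroptosis, differed by -0.74 (adjusted p = 0.155). Dedd, a protein with a death effector domain, was the gene higher without overlap, by 0.42 (adjusted p = 0.183).

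The TNF receptor complex and its ubiquitin machinery had 24 of 25 genes tested, with a median of -0.19. Of the 24, 6 were lower and 4 higher without overlap, beside 19.7% and 7.45% of all genes. Traf5, an adaptor of several TNF family receptors, came nearest to a call. It read -2.23, -2.29 and -2.03 in P38α+/- arrays and -0.81, -0.57 and -0.24 in arrays labelled P38α-/-. The groups were far apart beside their spread, with a log2 fold change of 1.64 (standard error 0.19, limma adjusted p = 0.0583), and it passed the call when only probes well above background on all 6 arrays were tested. Tnip1, a ubiquitin-binding brake on NF-kB, was higher without overlap by 0.63 (adjusted p = 0.106). Birc3, a ubiquitin ligase that modifies RIPK1, did not clear background on any of the 3 arrays labelled P38α-/- and was at least 2.39-fold lower there (adjusted p = 0.177). It was tested through the P38α+/- arrays alone, so it had to differ and adds no support to the count of lower genes. Cyld, a deubiquitinase of the complex, differed by -0.45 (adjusted p = 0.23). Of the 5 genes for shedding of ligands and receptors 2 were tested. Adam10, which cleaves Fas ligand, was lower without overlap by -0.32 (adjusted p = 0.277), and Adam17, which releases TNF, was near background throughout, with 0 arrays well above it.

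**Figure D5:**
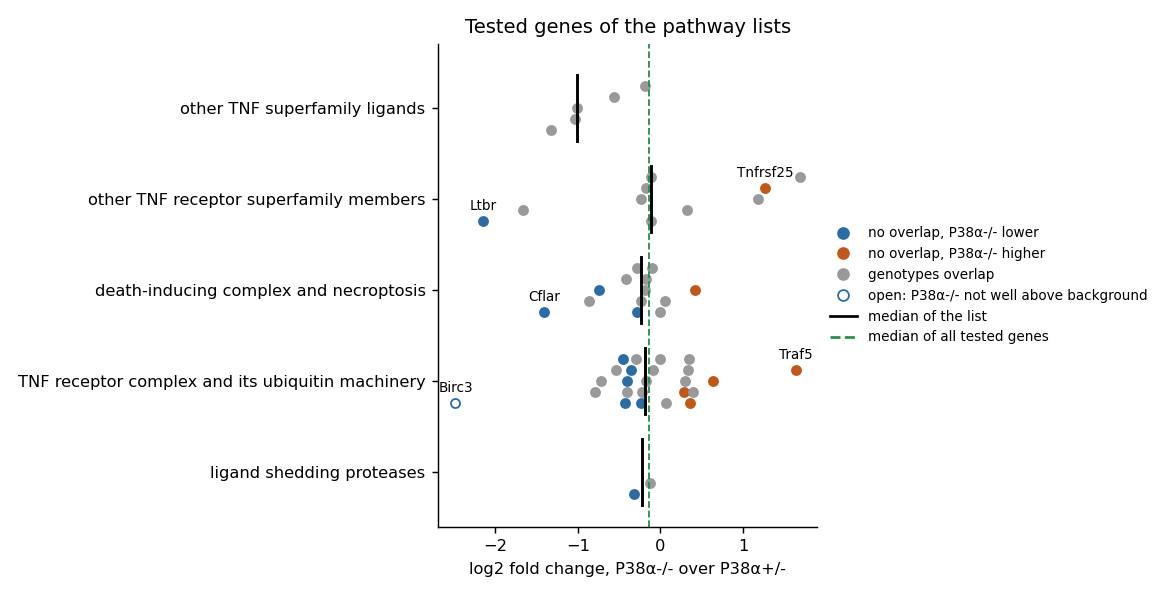
Log2 fold change of arrays labelled P38α-/- over P38α+/- arrays (n = 3 against 3) for each tested gene of the 5 lists, with colour for genes whose genotypes do not overlap, a black bar for the median of the list and a dashed line for the median of all tested genes, -0.14. Genes without overlap and with a fitted fold of at least 2 are named, and the open point, Birc3, is a gene not well above background in arrays labelled P38α-/-, for which only the bound of 2.39-fold holds. None passed the adjusted p of 0.05.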

How the data were processed

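Each of 6 Agilent whole mouse genome arrays held Cy3-labelled RNA (10 ng amplified) of the erythroblasts of 1 mouse. The authors deposited spot intensity values as Agilent Feature Extraction 10.7.3.1 wrote them, background-subtracted and not normalized between arrays, and a table of intensity values on a linear scale with medians of 8.48 on 5 columns and 8.50 on that of P38α-/- replicate 1, whose steps and centring are not named. In that table the column of P38α-/- replicate 2 followed the signal of its array less closely (Spearman correlation 0.898) than did the others (1.0). Of its columns, 0 were left without a sample.

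Control and outlier spots were left out, spots of a probe were averaged as log2, and put relative to the 75th percentile of their array. No spot was saturated. A probe counted as well above background where most of its kept spots were so flagged by the scanner software and was tested if so on all 3 arrays of a genotype. That left 18782 probes. Limma 3.58.1 in R 4.3.3 was used (lmFit, eBayes, two-sided, Benjamini-Hochberg over all tested probes), tested on simulated data. A gene was represented by its brightest tested probe. An "at least" fold set the brighter genotype's mean against, on each dim array, the higher of the probe's level and the lowest level well above background. With 3 arrays per genotype the precision is limited.

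The members and the lists were chosen with earlier results of these data known. All members are named, and of each pathway list the 2 highest and 2 lowest genes without overlap, with Casp8, Adam17 and single p-value passers added after their values were seen. Of each marker list the 3 brightest genes were eligible. To check whether replicate numbers pair the mice, deviations from genotype means were correlated, giving 0.392, 0.242 and 0.389 between arrays of 1 number and 0.0609 at most otherwise. This cannot settle a pairing, because deviations from a mean of 3 arrays sum to 0 and these correlations depend on each other. The labels state no pairing. The main fit was therefore unpaired, as in the methods, and a fit with replicate number as a block was given beside it. Alternatives were other scalings, background correction, filters, blocks, array weights, thresholds, the methods' unpaired equal-variance test, and each array left out. The rule that every spot be well above background was added after the data were seen.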

Additional observations from a re-analysis of the deposited data

How the results depend on the processing

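The count of members called, 0, was 1 with the percentile of all probes (Tnf), 2 with array weights (Tnf and Tnfrsf1a) and 1 under the methods' test without adjustment (Tnf), and stayed 0 otherwise, the replicate block and each array left out included. The percentile of all probes moved the median of all probes from -0.16 to 0.32 on the log2 scale. Members lower without overlap, 2 in all, were 1 with the percentile of all probes, quantile normalization, the authors' normalized values, the stricter filter and the rule on every spot, and 0 with E1A centring and normexp. Under the stricter filter and the rule on every spot Tnf was not tested. They were 2 to 3 with 1 array left out, 3 without P38α+/- replicate 3. The member added there was Tradd (log2 fold change -0.12, limma adjusted p = 0.733). With fewer arrays the genotypes come apart more easily for any gene. The sign of Fadd turned without P38α-/- replicate 1 (-0.03 to 0.41 with 1 array left out), and that of Tradd with the percentile of all probes (0.42), quantile normalization (0.04), E1A centring (0.09) and the authors' normalized values (0.01). Tnfrsf1a and Ripk1 kept their sign throughout. Tnf did so wherever it was tested, which adds no support because it entered the test through the P38α+/- arrays alone. In the limma fit with the replicate block Tnf had an adjusted p of 0.055, computed on the readings as they stand. No call on a member changed with the block. Of the 54 pathway genes, 0 of which were called, 6 were called with the percentile of all probes, 1 under the stricter filter (Traf5), 11 with array weights and 3 under the methods' test without adjustment. Over all probes 28 were called, and 0 to 106 with 1 array left out, most without P38α+/- replicate 3. Array weights raised this to 1892 of 18782 probes, and scaling to the percentile of all probes raised it to 813. Calls under these settings thus rose across the array and not only among the members. The causes were not tested. P38α-/- replicate 3 was alone on its slide and day of scanning, and the slide block amounts to leaving it out. Of the 10 members, 5 were too dim to test, and differences in them were not detectable at this signal.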
